A study of Mus musculus with 18 samples.

Results

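The 9 genes described here serve the uptake of filtered proteins and lipoproteins by kidney cells: Lrp2, Cubn, Amn, Dab2, Clcn5, Ocrl, Fcgrt, Vldlr and Lrp12. They were chosen by name for these roles, out of 19518 genes in the deposited table, and all 9 were among the 12030 genes that were tested. The table came from RNA-seq of whole kidney from ICR mice, an outbred strain, at 10 weeks of age, with 18 libraries in 6 groups of 3. One group was the control and one received AOS, an agent named in the labels only by that abbreviation, at 10 mg/kg. The other 4 groups were fed a high fat diet (HFD): HFD alone, HFD with AOS at 10 mg/kg, and HFD with FMT, the usual abbreviation of faecal microbiota transplantation, labelled either as AOS10mg/kg-FMT or as control-FMT. These groups are called control, AOS, HFD, HFD+AOS, HFD+AOS-FMT and HFD+control-FMT. The study asked what the transplants do to kidneys exposed to the diet. Neither the sex of the mice, nor the length of feeding, nor the donors of the transplants were stated in the labels. The labels number the libraries within a group without saying that each came from a separate animal, so p-values measure the spread between these libraries, which may be technical.

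Proximal tubule cells recover proteins, vitamin carriers and lipoproteins that pass the glomerulus. Megalin (Lrp2) and cubilin (Cubn) are large receptors at the apical surface of these cells, and amnionless (Amn) carries cubilin to that surface. The adaptor Dab2 links the receptors to clathrin, the chloride-proton exchanger Clcn5 and the lipid phosphatase Ocrl act in the endosomes that follow, and loss of either causes a human tubular protein loss disorder. Fcgrt, the neonatal Fc receptor, returns albumin and immunoglobulin G from endosomes, while Vldlr and Lrp12 belong with megalin to the lipoprotein receptor family.

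The levels are normalized signals, whose unit the labels do not name. The signal behaved as one corrected for gene length: its sum per library varied by 3.46% (coefficient of variation), and the sum of signal times transcript length varied by 0.815%. Depth in reads is unknown, so no interval from counting is given. The defining markers of the labelled tissue were present, since all 8 early and all 8 late proximal tubule markers reached a signal of 1 in every group. Control replicate 3 stood apart from the other 17 libraries. Its correlation with them over all tested genes was 0.948 to 0.963, against 0.979 to 0.993 among the 17. Its 8 adrenal markers summed to 922 against 0.81 to 2.31 elsewhere. Its early proximal tubule markers summed to 3279 and its late ones to 944, against at least 3722 and 1174 elsewhere. Its collecting duct markers summed to 416 and its podocyte markers to 114, against at most 260 and 74.7 elsewhere. Kap made up 2.48% of its summed signal, against 17.2% to 22.9% elsewhere. A list of 10 testis germ cell genes summed to 65.2 to 70.1 in the 3 control libraries and HFD replicates 1 and 2, and to 19.0 to 35.2 in the other 13. For the germ cell libraries a batch term was added to the fit instead of leaving them out. Since all 3 control libraries and no AOS library carry these transcripts, that term compares AOS with control only through the split within HFD. It compares HFD with control through HFD replicates 1 and 2. HFD+AOS and both transplant groups are then compared with HFD replicate 3 alone, so the term cannot decide whether a difference from HFD holds.

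Across the 9 genes, 1 difference passed the test: Vldlr was higher in HFD+AOS than in HFD. Each test was made with limma on log2(signal + 1), a scale that understates the change of low genes, with p-values adjusted by Benjamini-Hochberg over all 12030 genes of a comparison and a threshold of 0.05. In that comparison 0.823% of all tested genes passed, and 0.466% passed with a higher level in HFD+AOS. No gene of the 9 passed in the other 5 comparisons of groups, in the comparison of the AOS effect with and without HFD, or in the F test over the 6 groups.

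**Figure D1:**
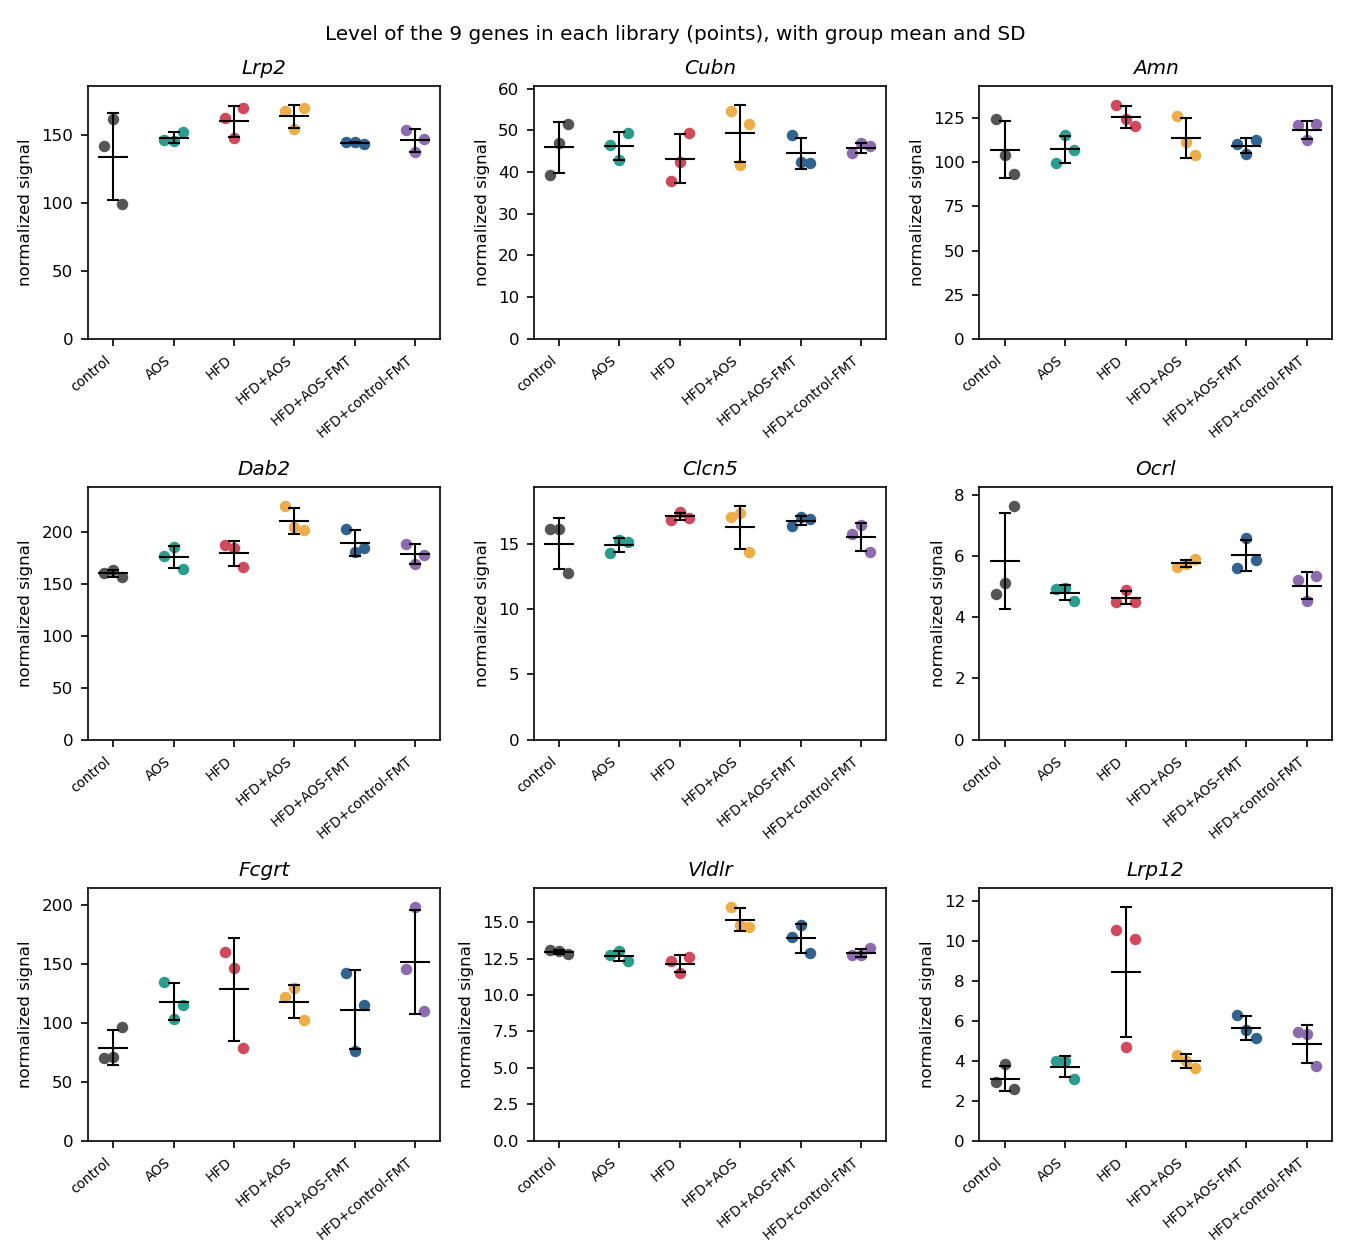
Normalized signal (linear axis from 0) of each of the 9 genes in every library (points), by group, with the group mean and SD (n = 3). Vldlr and Dab2 had their highest mean in HFD+AOS, Lrp12 was highest in HFD replicates 1 and 3, and control replicate 3 was the lowest library of all for Lrp2, Amn, Dab2, Clcn5 and Lrp12.

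Vldlr, the receptor for very low density lipoprotein and reelin, lies on chromosome 19 from 27216484 to 27254231 on the plus strand (GRCm38). RefSeq (GRCm38.p6) lists a pair of start sites for it. Their promoter sequences, from 250 bases before to 50 after the start, are shown because this was the gene that passed, together with those of Dab2 (chromosome 15, 6299788 to 6440712, plus strand), the member with the largest Pearson's r with Vldlr over the 18 libraries. Capitals mark any match, on either strand, to the hypoxia response core ACGTG, the CCAAT box, the GC box GGGCGG, the TATA box TATAAA or the sterol element TCACNCCAC.
Vldlr, upstream start, chr19:27216234-27216533, plus strand: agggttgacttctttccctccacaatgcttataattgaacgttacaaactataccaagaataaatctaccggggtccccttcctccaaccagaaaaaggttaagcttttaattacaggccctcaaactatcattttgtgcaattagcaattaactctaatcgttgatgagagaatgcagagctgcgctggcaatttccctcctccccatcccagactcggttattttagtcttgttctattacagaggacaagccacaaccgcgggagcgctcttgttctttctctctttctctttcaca
Vldlr, downstream start, chr19:27216770-27217069, plus strand: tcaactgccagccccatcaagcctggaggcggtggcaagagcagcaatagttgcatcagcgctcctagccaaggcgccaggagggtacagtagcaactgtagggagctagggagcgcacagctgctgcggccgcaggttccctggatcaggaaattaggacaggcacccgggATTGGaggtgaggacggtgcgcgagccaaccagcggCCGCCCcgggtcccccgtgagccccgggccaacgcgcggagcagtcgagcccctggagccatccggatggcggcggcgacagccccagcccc
Dab2, upstream start, chr15:6299539-6299838, plus strand: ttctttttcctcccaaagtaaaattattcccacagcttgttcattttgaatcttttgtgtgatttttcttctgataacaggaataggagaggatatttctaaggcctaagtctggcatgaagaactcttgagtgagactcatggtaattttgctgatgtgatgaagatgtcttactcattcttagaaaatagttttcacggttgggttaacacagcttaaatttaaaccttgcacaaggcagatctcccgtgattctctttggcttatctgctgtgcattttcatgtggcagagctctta
Dab2, downstream start, chr15:6386498-6386797, plus strand: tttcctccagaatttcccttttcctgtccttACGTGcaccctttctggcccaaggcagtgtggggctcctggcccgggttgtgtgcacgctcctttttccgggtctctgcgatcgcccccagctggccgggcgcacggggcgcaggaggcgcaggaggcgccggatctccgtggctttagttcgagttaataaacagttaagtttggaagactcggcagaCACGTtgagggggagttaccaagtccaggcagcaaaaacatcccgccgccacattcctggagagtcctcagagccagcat
The downstream Vldlr start had a GC content of 68.0% with 23 CpG dinucleotides, against 43.0% and 8 at the upstream start. It held CCAAT and GGGCGG, both on the minus strand, the first bases at -78 and -42 from the start. The downstream Dab2 start held ACGTG at -219 on the plus strand and at -30 on the minus strand, and the upstream start held none of the 5 motifs. Over 32851 mouse promoters of this length, ACGTG was present in 19.6%, CCAAT in 37.4%, GGGCGG in 35.7%, TATAAA in 13.6% and TCACNCCAC in 1.24%. Such letters describe the sequence and are not evidence of binding. None of the 11 promoters found for 8 of the 9 genes held TCACNCCAC. No promoter entry was matched for Lrp12.

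Megalin had the second highest mean signal of the 9 genes on this scale. Lrp2 (chromosome 2, 69424340 to 69586065, minus strand) measured 141.5, 161.4 and 99.1 in control replicates 1, 2 and 3. It measured 162.7, 147.3 and 169.7 in HFD and 167.3, 153.9 and 169.7 in HFD+AOS. The HFD+AOS-FMT libraries lay close together at 144.5, 144.5 and 143.6, all below the HFD libraries, which started at 147.3 (7.86% of all genes were lower without overlap). Among the AOS libraries Lrp2 ranged from 145.1 to 152.2 and among HFD+control-FMT from 137.3 to 153.8. By group mean the order was HFD+AOS, HFD, AOS, HFD+control-FMT, HFD+AOS-FMT and control, and every pair of neighbours in it overlapped. HFD exceeded control by 0.28 on the log2 scale (SE 0.12), with an adjusted p of 0.275 by limma. Without control replicate 3 that difference was 0.08 (adjusted p = 0.891 by limma), so 1 library carried most of it.

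Neither cubilin nor its carrier passed the test in any comparison. Cubn (chromosome 2, 13276338 to 13491813, minus strand) ranged from 37.8 to 54.7 over the 18 libraries, a ratio of 1.45. HFD had the lowest group mean at 43.2 ± 5.83 (SD, n = 3) and HFD+AOS the highest at 49.3 ± 6.85 (SD, n = 3), and all neighbours in the order of groups overlapped. The difference between these groups was 0.19 (95% interval -0.07 to 0.44, adjusted p = 0.508 by limma). It was -0.01 with the germ cell term, where HFD replicate 3 alone stands for HFD. Amn (chromosome 12, 111271095 to 111276426, plus strand) was highest in HFD, at 132.7, 124.4 and 120.4, and its lowest means were 107.3 in both control, at 124.6, 104.0 and 93.1, and AOS. All 3 HFD+AOS-FMT values of Amn, 110.6, 104.8 and 112.9, lay below the HFD values (log2 difference -0.20, 95% interval -0.40 to 0.0045, adjusted p = 0.387 by limma). Of all genes, 7.86% were lower without overlap there. Amn in HFD exceeded control by 0.24 (adjusted p = 0.254 by limma), and by 0.14 without control replicate 3.

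Dab2, the endocytic adaptor, had the highest mean signal of the 9 genes on this length-corrected scale. It measured 160.3, 163.4 and 156.7 in the control group and 187.9, 184.7 and 166.1 in HFD. In HFD+AOS it measured 225.4, 205.2 and 202.2, above every library of the other groups except 1 of HFD+AOS-FMT at 203.2. The control libraries lay below all libraries of the other 5 groups. Of all genes, 3.03% were higher without overlap in HFD than in control and 3.07% in AOS than in control. The share of genes that do so in all 5 groups was not computed. HFD+AOS averaged 210.9 ± 12.6 and HFD 179.5 ± 11.8 (SD, n = 3 each), a log2 difference of 0.23 (SE 0.07) that did not pass (adjusted p = 0.136 by limma). HFD exceeded control by 0.16 (adjusted p = 0.275; 0.15 without control replicate 3) and AOS exceeded control by 0.13 (adjusted p = 0.433), neither of which passed in limma. With the germ cell term, which rests on the split within HFD, the AOS difference was 0.30. Dab2 measured 203.2, 180.4 and 184.7 in HFD+AOS-FMT, and 189.0, 169.5 and 178.2 in HFD+control-FMT, so both transplant groups overlapped HFD.

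The endosomal genes Clcn5 and Ocrl were less abundant. Clcn5 (chromosome X, 7153810 to 7319358, minus strand) measured 16.88, 17.45 and 17.02 in HFD, with the control group at 16.2, 16.1 and 12.8. These groups did not overlap (3.03% of all genes were higher without overlap). The log2 difference was 0.18 (adjusted p = 0.290 by limma), or 0.08 without control replicate 3. Clcn5 also did not overlap between HFD+control-FMT, at 15.8, 16.5 and 14.4, and HFD (log2 difference -0.13, adjusted p = 0.9996 by limma). Of all genes, 6.38% were lower without overlap there. Ocrl (chromosome X, 47912387 to 47965868, plus strand), which removes the 5-phosphate from phosphoinositides, measured 4.51, 4.88 and 4.51 in HFD. It measured 5.65, 5.74 and 5.89 in HFD+AOS and 5.59, 6.58 and 5.88 in HFD+AOS-FMT. Both groups lay wholly above HFD and above HFD+control-FMT, at 5.20, 4.54 and 5.36. Of all genes, 16.2% were higher than HFD without overlap in HFD+AOS and 17.3% in HFD+AOS-FMT. Against HFD+control-FMT the share was 12.4% for HFD+AOS-FMT and was not computed for HFD+AOS. In limma the differences from HFD were 0.26 for HFD+AOS (adjusted p = 0.311) and 0.31 for HFD+AOS-FMT (adjusted p = 0.263), and neither passed. Control replicate 3 held the highest Ocrl value of all libraries, 7.64, against 4.76 and 5.10 in the other control libraries. Without it both differences kept their size and passed in limma, with adjusted p of 0.0444 and 0.0265. In that fit 6.85% of all genes passed between HFD+AOS and HFD, and 585 genes between HFD+AOS-FMT and HFD. Each Ocrl difference passed in only 1 of 14 alternative analyses. With another library left out, the adjusted p by limma rose to as much as 0.551 and 0.596.

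Fcgrt (chromosome 7, 45092990 to 45103851, minus strand) varied most between libraries of a group. Its pooled within-group SD was 0.37 on the log2 scale, and 92.8% of tested genes had a smaller one. It measured 70.5, 70.8 and 96.2 in the control group and 135.3, 103.6 and 115.6 in AOS, and these did not overlap. Of all genes, 3.07% were higher without overlap in AOS. HFD replicates 1 and 2 measured 160.1 and 147.2 and replicate 3 measured 78.4, while HFD+control-FMT held the highest value, 198.9, beside 145.8 and 110.6. Fcgrt in AOS exceeded control by 0.58 (95% interval -0.01 to 1.17, adjusted p = 0.398 by limma) and in HFD by 0.64 (95% interval 0.05 to 1.23, adjusted p = 0.270 by limma). Without control replicate 3 these differences were 0.72 and 0.79. With the germ cell term the AOS difference was 1.54, through the split within HFD, and the HFD difference was 0.96 (adjusted p = 0.324 by limma). The difference of HFD+AOS from HFD went from -0.06 to 0.58, with HFD replicate 3, at 78.4, standing alone for HFD. HFD+AOS, at 121.9, 129.7 and 103.0, and HFD+AOS-FMT, at 142.5, 75.8 and 115.5, both overlapped HFD.

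Vldlr varied least. Its pooled within-group SD was 0.06 on the log2 scale, and 1.90% of tested genes had a smaller one. In HFD+AOS it measured 16.1, 14.8 and 14.7, and in HFD 12.3, 11.5 and 12.6. The control libraries measured 13.09, 13.03 and 12.82, and the AOS libraries 12.75, 13.01 and 12.34. These and the HFD+control-FMT libraries, at 12.7, 12.8 and 13.2, all lay below HFD+AOS. The share of all genes with such gaps was not computed. HFD+AOS-FMT measured 13.96, 14.81 and 12.88 and overlapped HFD+AOS. Vldlr rose from 12.2 ± 0.557 in HFD to 15.2 ± 0.770 in HFD+AOS (SD, n = 3 each), a ratio of 1.25 and a log2 difference of 0.30 (SE 0.06, 95% interval 0.17 to 0.42, adjusted p = 0.0347 by limma). The direction held in all 14 alternative analyses, with differences from 0.25 to 0.32, but the call passed in only 3 of them. Apart from the germ cell term, the adjusted p by limma ran from 0.00962 to 0.144. Leaving out any 1 of the 6 HFD and HFD+AOS libraries ended the call (adjusted p from 0.0724 to 0.144 by limma). The term for the 5 libraries with germ cell transcripts set HFD+AOS against HFD replicate 3 alone, and the difference was then 0.25. HFD+AOS-FMT exceeded HFD by 0.18 (adjusted p = 0.211 by limma) and HFD+control-FMT exceeded HFD by 0.08 (adjusted p = 0.9996 by limma). The AOS effect on HFD minus the AOS effect on control was 0.33 for Vldlr (adjusted p = 0.286 by limma), so a difference between these effects was not shown. These comparisons with HFD share the same 3 HFD libraries.

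Lrp12 (chromosome 15, 39870589 to 39943994, minus strand), a transmembrane member of the lipoprotein receptor family, spanned the widest range of the 9 genes, with a highest library 4.10 times the lowest. It measured 2.93, 3.82 and 2.57 in the control group, 4.01, 4 and 3.09 in AOS and 4.31, 4.01 and 3.63 in HFD+AOS. HFD replicates 1 and 3 measured 10.5 and 10.1 while replicate 2 measured 4.69. The HFD libraries lay above all control libraries (3.03% of all genes did so) and above all HFD+AOS libraries (12% of all genes). They overlapped HFD+AOS-FMT, at 6.30, 5.53 and 5.12, and HFD+control-FMT, at 5.42, 5.36 and 3.74. HFD exceeded control by 1.14 on the log2 scale (SE 0.22, 95% interval 0.68 to 1.61), at 8.45 ± 3.26 against 3.11 ± 0.643 (SD, n = 3 each), and this did not pass (adjusted p = 0.137 by limma). Without HFD replicate 2 the difference was 1.48 and passed (adjusted p = 0.00188 by limma), as did 1 gene of all. Without control replicate 2 it was 1.27 and passed (adjusted p = 0.0255 by limma), as did 217 genes of all. These were the only passes in 13 alternative analyses, whose adjusted p by limma ran up to 0.689. Without control replicate 3 the difference was 1.05 (adjusted p = 0.339 by limma). HFD+AOS was 0.86 log2 units below HFD (adjusted p = 0.0789 by limma), with an adjusted p of 0.00753 without HFD replicate 2 and 0.0326 without control replicate 3. These were the only passes in 14 alternative analyses, whose adjusted p by limma ran up to 0.267. Without control replicate 3, 6.85% of all genes passed in that comparison. HFD+control-FMT was 0.64 log2 units below HFD (adjusted p = 0.9996 by limma).

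The 6 comparisons of groups can be read side by side for the 9 genes. Between HFD and control, 0% of all genes passed, while 6 of the 9 genes had an unadjusted p under 0.05 (17.4% of all genes did). Of these, Lrp2, Amn, Dab2, Fcgrt and Lrp12 were higher in HFD, against 2.93% of all genes, and Ocrl was lower, against 14.5%. Without control replicate 3 the count was 2, Fcgrt and Lrp12, against 6.84% of all genes. In the full set the groups did not overlap for Dab2, Clcn5 and Lrp12, higher in HFD (3.03% of all genes), and for Vldlr, lower (12.6%). The median of the 9 was 0.18 and that of all genes -0.10 on the log2 scale. Quantile normalization moved the median of all genes by 0.12, and Vldlr then changed from -0.09 to 0.03, while the other 8 kept their sign. Between AOS and control no gene of the 9 passed (0.0333% of all genes did) and 0 had an unadjusted p under 0.05 (12.7%), and Dab2 and Fcgrt were higher without overlap (3.07% of all genes). In that comparison quantile normalization moved the median of all genes by 0.10 and changed the sign of Clcn5 and Vldlr.

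Between HFD+AOS and HFD the groups did not overlap for Dab2, Ocrl and Vldlr, higher (16.2% of all genes), and for Lrp12, lower (12% of all genes). At an unadjusted p under 0.05 there were 4 of the 9 (15.1% of all genes). The median of all 9 was 0.034 and that of all genes 0.014. Between HFD+AOS-FMT and HFD, where 0.175% of all genes passed, 2 of the 9 had an unadjusted p under 0.05 (13.3%), and Ocrl and Vldlr were higher without overlap (17.3% of all genes) and Lrp2 and Amn lower (7.86%). Between HFD+control-FMT and HFD, where 0% passed, 1 of the 9 had an unadjusted p under 0.05, Lrp12 (4.5% of all genes did). The groups did not overlap for 1 higher, Vldlr (9.07% of all genes), and 1 lower, Clcn5 (6.38%). Between the transplant groups, where 0% of all genes passed and 0 of the 9 had an unadjusted p under 0.05 (7.02%), Ocrl was higher in HFD+AOS-FMT without overlap (12.4% of all genes) and its log2 difference was 0.22 (adjusted p = 0.742 by limma). For the difference between the AOS effects 0% of all genes passed, with 3 of the 9 at an unadjusted p under 0.05 (12.4%). Quantile normalization moved the median of all genes there by -0.11 and Vldlr from 0.33 to 0.21. In the F test 1.02% of all genes passed, with 3 of the 9 at an unadjusted p under 0.05 (17.7%). The smallest F test adjusted p in limma were 0.0745 for Lrp12, 0.0838 for Dab2 and 0.0923 for Vldlr.

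**Figure D2:**
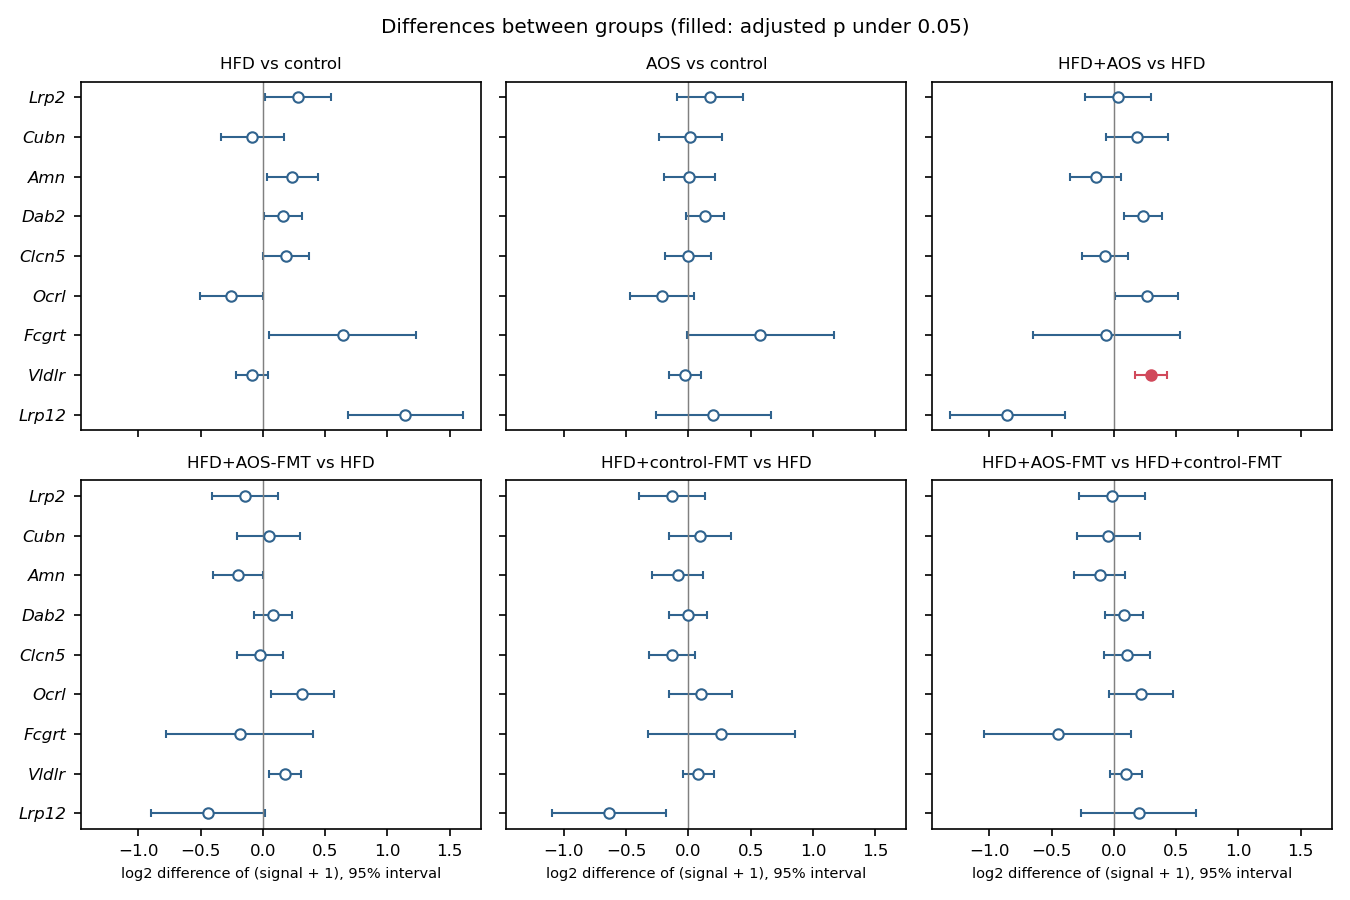
Log2 differences of (signal + 1) with 95% intervals for the 9 genes in 6 comparisons of groups of 3 libraries. Filled points have an adjusted p under 0.05 by limma, and the only one is Vldlr in HFD+AOS against HFD (0.30, interval 0.17 to 0.42); the intervals of Fcgrt and Lrp12 are the widest.

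The signal of other cells moved with some of these groups. Early proximal tubule markers summed to 4652 to 5171 in HFD+AOS against 4370 to 4622 in HFD, without overlap. The median log2 level of these markers did overlap, at 7.79 to 7.95 against 7.68 to 7.86. Late proximal tubule markers overlapped, with sums of 1181 to 1348 against 1174 to 1347. Their median log2 level was 6.04, 6.23 and 6.46 in HFD+AOS against 6.41, 6.99 and 7.02 in HFD. The sums of the 7 podocyte markers were 48.1 to 58.8 in HFD+AOS against 31.6 to 44.2 in HFD, and those of the 5 smooth muscle markers were 17.8 to 20.6 against 26.3 to 38.5. The 8 adrenal markers were low in both, at 1.67 to 2.31 and 1.14 to 1.64. Germ cell markers summed to 19.0 to 23.5 in HFD+AOS and 27.6 to 67.3 in HFD, with Prm1, Prm2 and 4 others at 0 in all HFD+AOS libraries. The part of these cells in the difference of Vldlr was not tested. In whole kidney, fewer cells of a type and less RNA per cell cannot be told apart.

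Lists of other genes of the pathway were examined in the same fit, of which 117 distinct genes were tested. Between HFD+AOS and HFD, 5 of them passed (0.823% of all genes did), and none passed by limma in the other 5 comparisons of groups. In those, 0 to 6 genes of a list had an unadjusted p under 0.05, against 4.5% to 17.4% of all genes. The 6 were among the 18 genes of cargo binding and handling, between HFD and control (17.4% of all genes). Of 32 genes of the apical endocytosis machinery, 1 rose: Slc9a3, the sodium-proton exchanger of the proximal tubule brush border. It measured 34.6, 40.4 and 34.2 in HFD+AOS against 24.5, 25.7 and 19.9 in HFD (log2 difference 0.62, SE 0.13, adjusted p = 0.0405 by limma). The median of this list was 0.025.

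Of 19 genes of the vacuolar proton pump, which acidifies endosomes, 3 fell and none rose, and all 3 encode subunits of its membrane part. Atp6v0e measured 195.1, 196.2 and 181.2 in HFD+AOS and 244.9, 252.7 and 248.0 in HFD (log2 difference -0.38, adjusted p = 0.0127 by limma). Atp6v0b averaged 168.6 ± 3.19 against 216.8 ± 3.30 (SD, n = 3 each, log2 difference -0.36, adjusted p = 0.0347 by limma). Atp6v0d1 averaged 79.9 ± 4.67 against 96.4 ± 1.43 (SD, n = 3 each, log2 difference -0.27, adjusted p = 0.0491 by limma). None of the 3 overlapped between these groups (12% of all genes were lower without overlap). The median of the list was -0.056, and Atp6v1b1 and Atp6v0a4, named after their values were seen, lay the other way without passing, at 0.39 and 0.28 (adjusted p = 0.200 and 0.329 by limma).

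Of 22 tested genes among 25 other lipoprotein receptors and their regulators, 1 rose: Ldlrad3, a small protein of the lipoprotein receptor family. It measured 17.6, 15.5 and 15.8 in HFD+AOS against 11.4, 12.2 and 12.4 in HFD (log2 difference 0.41, SE 0.08, adjusted p = 0.0261 by limma). In the F test Atp6v0e (adjusted p = 0.0138) and Ldlrad3 (adjusted p = 0.0226) passed in limma. Of the 18 lysosomal genes, the 18 genes of cargo binding and handling and the 9 phosphoinositide enzymes, 0 passed by limma between HFD+AOS and HFD. At an unadjusted p under 0.05 by limma there were 1, 1 and 2 (15.1% of all genes). Of the 32 endocytosis, 19 proton pump and 22 other lipoprotein receptor genes there were 6, 8 and 3. The smallest F test adjusted p in limma was 0.233 (Tcn2) for the cargo list and 0.0965 (Inpp5b) for the phosphoinositide enzymes. Inpp5b, a phosphatase closely related to Ocrl, averaged 37.6 ± 1.97 in HFD+AOS and 31.2 ± 2.08 in HFD (SD, n = 3 each). Its log2 difference of 0.26 did not pass (adjusted p = 0.0555 by limma).

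The 5 calls depended on the libraries. Without control replicate 3, 13 list genes passed between HFD+AOS and HFD, including these 5, where 6.85% of all genes passed. Leaving out 1 of the HFD or HFD+AOS libraries left 0 or 1, Atp6v0e where 1 was left. The term for the germ cell libraries sets HFD+AOS against HFD replicate 3 alone and cannot decide whether the calls hold. These alternatives were chosen after the calls had been seen.

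**Figure D3:**
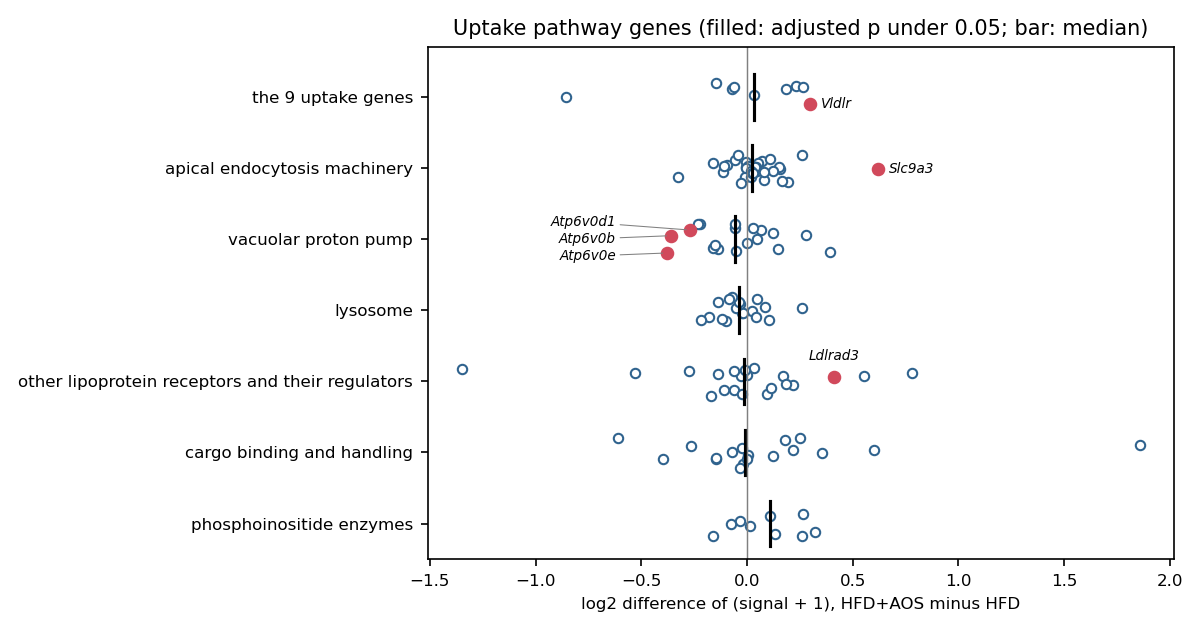
Log2 difference of (signal + 1) between HFD+AOS and HFD (3 libraries each) for the tested genes of 7 lists. Each gene has 1 point in a list, and Inpp5b appears in both the endocytosis and the phosphoinositide list. Bars mark list medians, which lay between -0.056 and 0.11, and filled points with names are the 6 genes with an adjusted p under 0.05 by limma.

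The 9 genes formed 36 pairs, whose correlation over the 18 libraries was computed on the log2 scale with a permutation test. After Benjamini-Hochberg adjustment over the 36 pairs, 0 passed, and 10 had an unadjusted p under 0.05 for Pearson's r. The largest r joined Dab2 and Vldlr (r = 0.64, permutation p = 0.00387, adjusted p = 0.135; Spearman's rho = 0.38, permutation p = 0.12, adjusted p = 0.360). It was 0.48 without the 2 libraries farthest from the median of Dab2, and 0.17 for deviations from the group means. Ocrl and Vldlr had the largest rho, 0.69 (permutation p = 0.00178, adjusted p = 0.0641), with r = 0.49 (permutation p = 0.0387, adjusted p = 0.155). Their r was 0.70 without the 2 libraries farthest from the median of Ocrl, of which 1 was control replicate 3, and 0.01 for deviations from the group means. Lrp2 and Ocrl had r = -0.55 (permutation p = 0.0298, adjusted p = 0.155) and rho = -0.18 (permutation p = 0.481, adjusted p = 0.636). Their r was -0.01 without control replicate 3, so that relation rested on this library.

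Over the 18 libraries, the genes whose log2 level was most like each of the 9 were taken from 7913 genes with a mean signal of at least 5, and their r is a description. Ocrl had the closest neighbour of all, Atp1b1, the beta subunit of the sodium pump (r = 0.96, and 0.96 without control replicate 3), then Cobll1 (0.94) and Nampt (0.93). Atp1b1 measured 842, 944 and 894 in HFD and 1193, 1129 and 1191 in HFD+AOS. In HFD+AOS-FMT it measured 1146, 1329 and 1197, so both groups lay above HFD, as for Ocrl, and control replicate 3 was again highest at 1427. Since Atp1b1 was chosen by its r with Ocrl over these libraries, this likeness is no separate observation. Lrp2 was nearest to Snap29 (0.90), Ass1 (0.90) and Cpox (0.89), which fell to 0.69, 0.67 and 0.56 without control replicate 3. Dab2 was nearest to Myo7b (0.87), Cndp1 (0.86) and Enpp3 (0.86), and Amn to St6galnac2 (0.88), Bsdc1 (0.81) and Adamts15 (0.75). Vldlr was nearest to Chdh (0.85), Nsd3 (0.85) and Pcmtd2 (0.83), and Clcn5 to Atp13a3 (0.82) and Trpc1 (0.81). Without control replicate 3, Clcn5 had r of 0.67 with Atp13a3 and 0.65 with Trpc1. Lrp12 was nearest to Tmem252 (0.80), Nap1l1 (0.78) and Grn (0.75). Cubn, with Cyp4f13 (0.76), Dclk3 (0.76) and Lims2 (0.74), and Fcgrt, with Ascc1, Nat8 and Map1lc3a (0.72 each), had the least similar neighbours over the 18 libraries. Without control replicate 3 these values were 0.79, 0.76 and 0.73 for Cubn and 0.72 each for Fcgrt. They then lay above the values given for Lrp2 and Clcn5, so this order rested on control replicate 3.

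**Figure D4:**
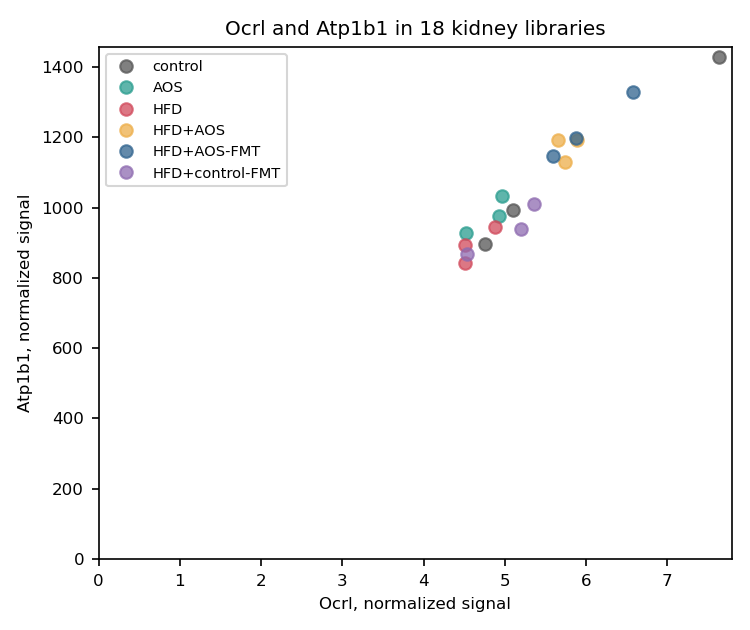
Normalized signal of Ocrl (x axis) and Atp1b1 (y axis) in the 18 libraries, coloured by group, both axes linear from 0. The HFD libraries lie among those at the lower left (Ocrl 4.51 to 4.88), the HFD+AOS and HFD+AOS-FMT libraries to their upper right (Ocrl 5.59 to 6.58), and control replicate 3 at the far upper right (Ocrl 7.64).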

How the data were processed

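RNA was sequenced from 18 kidney libraries. Alignment used Bowtie 0.12.2 and the mm10 build, per the submitters' processing notes; for annotation, counting and normalization, tools were not given in the sources used here. Values in the deposited table are normalized signals made by the authors, 1 per gene and library, summing to between 637302 and 721171 per library. Depth in reads is unknown. Left out were 26 rows whose symbols had become dates and 1 repeated symbol.

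Genes with a signal of at least 1 in at least 3 libraries were kept, and log2(signal + 1) was fitted with limma 3.58.1 in R 4.3.3 (trended, robust eBayes, all 18 libraries, groups as the only factor), adjusting by Benjamini-Hochberg over all tested genes. The fit was tested on simulated data for HFD+AOS against HFD, with 50 genes changed at each of 4 sizes. It recovered 12% of genes changed by 0.25 on the log2 scale and 56% of those changed by 0.5. At 1 it recovered 90% and at 2 it recovered 100%, with 5 false calls among 134. Ranges, orders and permutation tests were computed in Python. Coordinates are those of GENCODE M21 (GRCm38), matched by symbol (97.3% of genes found). Promoters come from RefSeq (GRCm38.p6).

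The 9 genes, the lists and the alternatives were chosen with earlier results of these data known. All 9 are named, with the 3 genes most correlated with each (predicted genes passed over), list genes that passed, and those of smallest F test p where the text gives them; some genes that this rule would name are not reported here. Alternatives were a pseudocount of 0.1, no filter, quantile normalization, plain eBayes without trend and robust fitting, a replicate block, a germ cell batch term, only the groups compared, and leaving out each library.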

Additional observations from a re-analysis of the deposited data

How the results depend on the processing

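There were 909 alternative values for single differences of the 9 genes. Of these, 14 belonged to the only called difference, Vldlr between HFD+AOS and HFD, and 0 of the 14 reversed it. Changes of sign in differences that were not called were not counted as reversals. Fcgrt between HFD+AOS and HFD, for example, went from -0.06 to 0.58 with the germ cell term, where HFD replicate 3 alone stands for HFD. The call of Vldlr between HFD+AOS and HFD was lost in 11, another gene passed in 6, and the other values stayed on their side of the threshold, 38 of them moving by more than the spread between replicates. Without the filter on low values, 25 genes passed between HFD and control (0 otherwise), 149 between AOS and control (4), 45 between HFD+AOS and HFD (99), 4 for the difference between the AOS effects (0) and 265 in the F test (123). Quantile normalization left 1 gene between AOS and control and 9 between HFD+AOS-FMT and HFD (21), and plain eBayes, without trend and robust fitting, left 13 there. The germ cell batch term left 0 between AOS and control, 7 between HFD+AOS and HFD, 1 between HFD+AOS-FMT and HFD and 0 in the F test. Fits on only the groups compared gave 1 gene between HFD and control, 347 between HFD+AOS and HFD, 179 between HFD+AOS-FMT and HFD and 1 between the transplant groups.

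Leaving out each library gave 0 to 217 genes between HFD and control, 0 to 30 between AOS and control, 10 to 819 between HFD+AOS and HFD, 0 to 585 between HFD+AOS-FMT and HFD, 0 to 8 between HFD+control-FMT and HFD, 0 to 14 between the transplant groups, 0 to 1 for the AOS effects and 46 to 761 in the F test. Leaving out control replicate 3 gave the 819, 585, 14 and 761, control replicate 2 the 217 and 30, and HFD replicate 3 the 8. Of the 9 genes, between HFD+AOS and HFD, 0 passed with no filter, quantile normalization or only these groups. When a library was left out 0 to 3 passed. Leaving out a library gave 0 to 1 of the 9 between HFD and control and between HFD+AOS-FMT and HFD, and 0 to 3 in the F test, where quantile normalization gave 1. Of the list genes, 5 otherwise, 2 passed without the filter, 3 with plain eBayes and 8 in only these groups. When a library was left out 0 to 13 passed. Of the 36 pairs, 4 correlated after quantile normalization, 1 as deviations from group means and 1 without control replicate 3. The cause of these changes was not tested.

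Replicate numbers did not pair the libraries: deviations of same-numbered libraries had a median correlation of -0.020 over 45 pairs, against 0.011 over 90 others, and 5 of 18 libraries correlated best with their own number. With a replicate block 45 genes passed between HFD+AOS and HFD, 1 between AOS and control and 70 in the F test, with 0 of the 9 genes and 2 list genes, and the adjusted p of Vldlr was 0.0654 by limma.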
